A study of Mus musculus with 8 samples.

Results

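The white adipocyte and adipokine genes described here are 10 genes chosen by name from what is known of fat cells: the adipokine genes Adipoq, Lep, Retn and Cfd, and Plin1, Fabp4, Lpl, Pnpla2, Lipe and Pparg of lipid storage, lipid release and adipocyte differentiation. All 10 were found among the 51789 genes of the deposited count table, and all 10 had enough counts to be tested, with 442 to 119921 counts per gene and gland. RNA was sequenced from whole mammary glands of female, immunocompetent C57BL/6 mice, 6 weeks after injection of small extracellular vesicles (sEVs) into the abdominal gland. The sEV NORM group (3 glands) received sEVs released in normoxia by AT3 cells, a line from a mouse mammary adenocarcinoma that metastasizes, the sEV HYP group (2 glands) received those released by the same cells in hypoxia, and the sEV CTRL group (3 glands) received a preparation made from medium that no cells had conditioned. The mouse stock listed for the study is the albino strain B6(Cg)-Tyrc-2J/J, and the age of the mice is not given in the sources used here. Both tumor groups received sEVs of the same single cell line. Total counts per gland were 18194996 to 24622569. The labels name no batch, and the study describes the samples of a group as separate animals, so p-values measure the spread between animals.

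White adipocytes make up most of the volume of the mouse mammary fat pad, in which the epithelial ducts grow. They take up fatty acids, store them as triglyceride in a single large lipid droplet, release them again by lipolysis when energy is needed, and secrete adipokines, hormones and other proteins that report on the fat store. The study compared glands to learn which transcripts tumor sEVs change, and here the comparisons ask this of the ordinary white fat program.

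In these glands the white adipocyte genes were abundant, moved up and down together from gland to gland, and could not be told apart between sEV groups beyond the spread between glands. None of the 10 genes passed an unadjusted P of 0.05, the threshold of a call throughout, in any of the 3 comparisons. Of all tested genes 3.95% passed it between sEV HYP and sEV NORM and 2.45% between sEV HYP and sEV CTRL. Between sEV NORM and sEV CTRL 1.62% did. With so few genes called in all, the absence of calls among the 10 does not set them apart. The intervals of their fold changes were wide, from 0.498-fold to 2.24-fold between sEV HYP and sEV NORM. The 10 genes held 0.959% to 1.71% of all counts, with the lowest share in sEV NORM replicate 2 and the highest in sEV CTRL replicate 3. Because whole glands were sequenced, fewer adipocytes and less RNA of these genes per adipocyte cannot be told apart.

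Adipoq (chr16:23146536-23158028, forward strand) encodes adiponectin, a circulating protein that improves the insulin response of liver and muscle. Its level was 925, 1248 and 1581 CPM in the sEV CTRL glands, 1129, 679 and 1230.1 CPM in the sEV NORM glands and 723 and 1162 CPM in the sEV HYP glands, where CPM are counts scaled to the library total with edgeR's trimmed mean of M values (TMM). The groups overlapped, with the lowest gland in sEV NORM and the highest in sEV CTRL. Lep (chr6:29060220-29073877, forward strand) encodes leptin, the hormone that signals the size of the fat store to the hypothalamus. It was the scarcest of the 10, at 41.3, 51.2 and 75.0 CPM in the sEV CTRL glands, 56.0, 19.6 and 48.4 CPM in the sEV NORM glands and 31.9 and 50.3 CPM in the sEV HYP glands. The gland of sEV NORM replicate 2 stood lowest, and its 19.6 CPM lay 3.83-fold under the highest gland, the widest span among the 10 genes. Retn (chr8:3655770-3660110, forward strand) encodes resistin, a small protein that adipocytes secrete in mice. Its level was 919.8, 793 and 1716 CPM in the sEV CTRL glands, 1146, 595 and 1026 CPM in the sEV NORM glands and 992 and 1177 CPM in the sEV HYP glands. Both sEV HYP glands lay within the range of the sEV CTRL glands, of which replicate 3 was far above the others. Cfd (chr10:79890853-79892655, forward strand) encodes adipsin, the complement factor D protease. Its level was 1714, 1814 and 2283 CPM in the sEV CTRL glands, 1642, 1334 and 2301 CPM in the sEV NORM glands and 1956 and 2642 CPM in the sEV HYP glands. The highest gland was sEV HYP replicate 2, while sEV HYP replicate 1 lay among the glands of the other groups.

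Plin1 (chr7:79720218-79732903, reverse strand) encodes perilipin 1, which coats the lipid droplet and holds lipases off it until it is phosphorylated. It was at 672, 841 and 890.0 CPM in the sEV CTRL glands, 712, 550.4 and 861 CPM in the sEV NORM glands and 569 and 1127 CPM in the sEV HYP glands. The sEV HYP glands held the second lowest and the highest level, 1.98-fold apart. Fabp4 (chr3:10204088-10208576, reverse strand), the cytosolic fatty acid carrier of adipocytes, was at 2690.1, 3781 and 4237 CPM in the sEV CTRL glands, 3592, 2595 and 3831 CPM in the sEV NORM glands and 2419 and 4143 CPM in the sEV HYP glands. Lpl (chr8:68880491-68907448, forward strand), the lipoprotein lipase that frees fatty acids from circulating triglyceride, was at 3897, 5469 and 4828 CPM in the sEV CTRL glands, 4464, 3085 and 4809.7 CPM in the sEV NORM glands and 3081 and 5892 CPM in the sEV HYP glands. For both of these genes sEV HYP replicate 1 was the lowest of all 8 glands, while sEV HYP replicate 2 was the second highest for Fabp4 and the highest for Lpl. Pnpla2 (chr7:141455198-141460743, forward strand) encodes adipose triglyceride lipase, which takes the first fatty acid from triglyceride. Its level was 353, 398 and 743 CPM in the sEV CTRL glands, 484, 304 and 506 CPM in the sEV NORM glands and 274 and 519 CPM in the sEV HYP glands. Lipe (chr7:25379527-25398710, reverse strand), the hormone-sensitive lipase that acts on the resulting diglyceride, was at 231, 220.5 and 374 CPM in the sEV CTRL glands, 257, 182 and 269.8 CPM in the sEV NORM glands and 203 and 302 CPM in the sEV HYP glands. Both lipases peaked in sEV CTRL replicate 3. Pparg (chr6:115360951-115490399, forward strand) encodes the nuclear receptor that drives adipocyte differentiation and is the target of thiazolidinedione drugs. Its level was 213, 181 and 295 CPM in the sEV CTRL glands, 161, 197 and 268 CPM in the sEV NORM glands and 243 and 354 CPM in the sEV HYP glands. Replicate 2 of sEV HYP was the highest gland and replicate 1 lay between sEV NORM replicates 2 and 3, so the groups overlapped. All coordinates are on GRCm38. On the opposite strand Lipe overlaps 4732471J01Rik and Pparg overlaps Gm44079, and whether the counts were assigned by strand is not given in the sources used here.

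**Figure D1:**
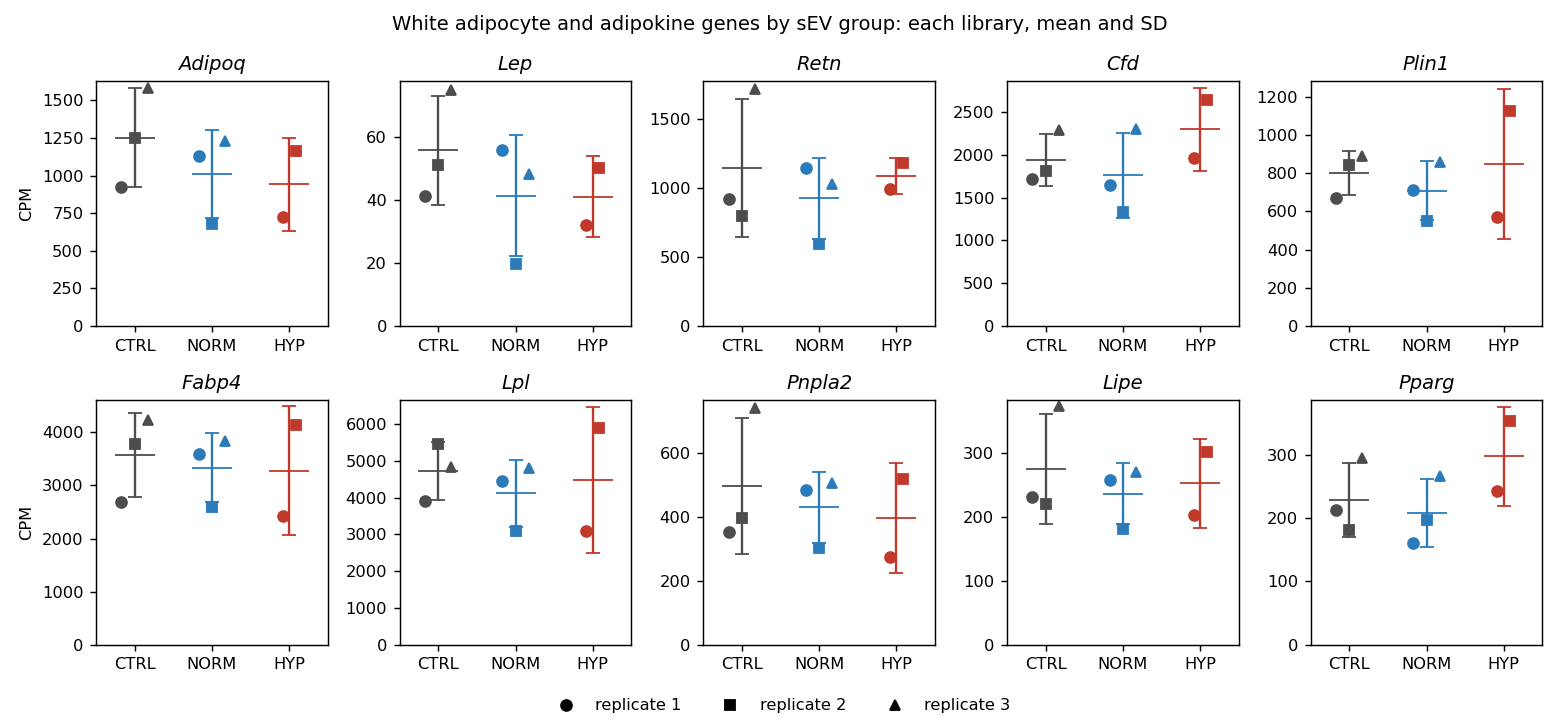
Level of each of the 10 genes in CPM (vertical axis, linear, from 0) for the 3 sEV groups, with 1 symbol per gland and its shape giving the replicate number. Horizontal bars are group means and vertical bars 1 SD (n = 3, 3 and 2). In every panel the groups overlap, and sEV NORM replicate 2 is the lowest gland of its group for 9 of the 10 genes.

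To set the genes beside each other, CPM were divided by the length of the merged exons in kb. On this scale the median over the 8 glands was 2044 CPM per kb for Cfd, 829.6 for Adipoq, 821 for Fabp4, 639 for Retn and 443 for Lpl. It was 167 CPM per kb for Plin1, 146 for Pnpla2, 77.1 for Pparg, 41.5 for Lipe and 14.7 for Lep. The secreted protease adipsin thus stood above all others in every gland (1447 to 2865 CPM per kb) and leptin under all others (5.84 to 22.4), without overlap of their ranges with the next gene. Adipoq, Fabp4, Retn and Lpl formed a middle set whose neighbours overlapped, and Adipoq exceeded Fabp4 in 5 of the 8 glands. Plin1 and Pnpla2 overlapped in the same way, with Plin1 higher in 6 of 8 glands, and Pnpla2 exceeded Pparg, and Pparg exceeded Lipe, in all 8 glands although their ranges over all glands overlapped. The order depends on the length used, most for Fabp4 and Lpl, whose merged exons take in transcripts that keep introns. The longest principal transcript was used instead (896 bases in place of 4489 for Fabp4), a choice made after the lengths were seen. Fabp4 then had a median of 4115 CPM per kb, above Cfd in all 8 glands, and Lpl one of 1127, behind only Fabp4 and Cfd. Retn and Adipoq then had nearly equal medians of 886 and 887 CPM per kb, with Retn above Adipoq in 5 of 8 glands.

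The 10 genes varied from gland to gland largely as a group. The mean of their log2 CPM lay -0.56 from the mean of the 8 glands in sEV NORM replicate 2, -0.32 in sEV HYP replicate 1 and -0.17 in sEV CTRL replicate 1. It lay 0.01 from that mean in sEV CTRL replicate 2, 0.02 in sEV NORM replicate 1, 0.18 in sEV NORM replicate 3, 0.35 in sEV HYP replicate 2 and 0.49 in sEV CTRL replicate 3. Each group therefore held a gland below the mean and a gland above it. All 10 genes were higher in sEV HYP replicate 2 than in sEV HYP replicate 1, 9 of 10 were lowest of their group in sEV NORM replicate 2 (Pparg was the exception), and 9 of 10 were highest of their group in sEV CTRL replicate 3 (Lpl was the exception). The pooled SD of log2 CPM within groups ran from 0.32 for Cfd to 0.62 for Lep, where the median of tested genes with a mean of at least 10 CPM was 0.23.

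**Figure D2:**
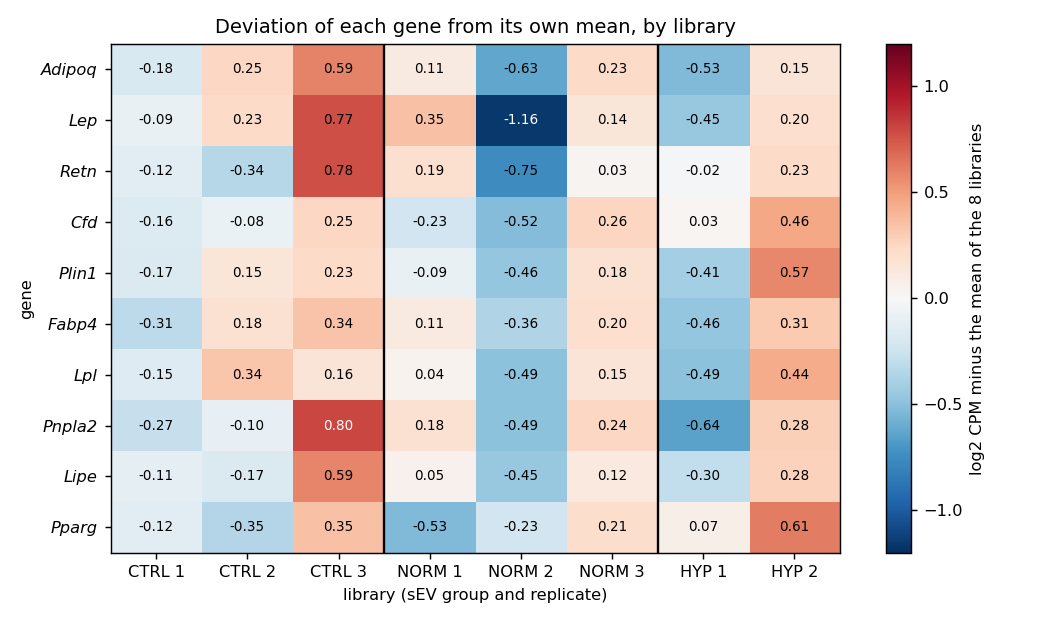
Deviation of log2 CPM from each gene's own mean over the 8 glands (color and printed value), with genes in rows and glands in columns, and black lines between the groups. Most genes are below their mean in sEV NORM 2 and sEV HYP 1 and above it in sEV CTRL 3 and sEV HYP 2. In sEV HYP 1, Pparg (0.07), Cfd (0.03) and Retn (-0.02) lie near their mean, apart from the others.

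Across the 8 glands the strongest pairwise likeness of log2 CPM was between the lipases Pnpla2 and Lipe (Pearson r = 0.96), followed by Plin1 with Lpl (0.95) and the hormones Adipoq with Lep (0.94). These values describe the same 8 libraries throughout and share each library's composition, and no p is given for them. Pparg was the least like the rest, with a median r of 0.44 over the 9 other genes and its highest r, 0.85, with Cfd. For the other 9 genes the median r with their fellow members was 0.66 to 0.86. These r include differences between groups. With each group's mean taken out first, r of Pparg went from 0.26 to 0.36 with Lep, its lowest, and from 0.30 to 0.54 with Adipoq. With Cfd, its highest, it went from 0.85 to 0.79.

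Upstream sequences are shown for 3 of the 4 genes that hold the C/EBP core, the motif of a transcription factor family that acts beside PPARγ in adipocyte differentiation. The upstream sequence of Plin1, the other gene, holds the core 3 times and is not printed. RefSeq windows (GRCm38.p6), from 250 bases before to 50 after a transcription start, were given for 8 of the 10 genes, 11 windows in all. They were searched on both strands for the PPAR element core AGGTCA, the direct repeat of this core with 1 base between (which contains the core itself), the C/EBP core TTNNGNAA and the TATA box TATAAA. The C/EBP core was found in 4 of the 11 windows, those of Adipoq, Lep, Plin1 and the most downstream of 3 Pparg starts, and in 40.7% of all 32851 windows. The PPAR element core was found in 2 windows, those of the other 2 Pparg starts, against 16.3% of all windows, the TATA box in 1 of the same 2 against 13.6%, and the direct repeat in none against 0.0396%. The 250 bases before the start are printed for Adipoq (chr16:23146286-23146535), Lep (chr6:29059971-29060220) and Pparg (chr6:115421816-115422065), all on the forward strand, with the core in capitals.
Adipoq: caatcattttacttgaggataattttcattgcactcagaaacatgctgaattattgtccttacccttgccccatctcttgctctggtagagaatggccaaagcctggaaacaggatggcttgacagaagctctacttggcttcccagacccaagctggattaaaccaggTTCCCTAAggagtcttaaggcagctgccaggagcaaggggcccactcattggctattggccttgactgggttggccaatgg
Lep: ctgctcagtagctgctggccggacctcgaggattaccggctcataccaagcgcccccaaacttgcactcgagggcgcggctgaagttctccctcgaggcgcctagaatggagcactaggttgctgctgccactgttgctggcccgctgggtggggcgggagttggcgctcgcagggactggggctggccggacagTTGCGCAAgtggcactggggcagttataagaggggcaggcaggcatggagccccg
Pparg: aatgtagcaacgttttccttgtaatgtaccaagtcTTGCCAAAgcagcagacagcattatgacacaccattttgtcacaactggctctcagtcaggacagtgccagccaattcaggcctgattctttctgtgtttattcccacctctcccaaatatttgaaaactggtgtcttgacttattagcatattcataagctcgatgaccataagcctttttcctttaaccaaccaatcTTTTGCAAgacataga
The core began 81 bases before the start in Adipoq and 55 in Lep, and at 215 and 16 bases before it in Pparg. A match describes these letters only, and no binding was measured here.

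Between sEV HYP and sEV NORM, the comparison that sets hypoxic against normoxic tumor sEVs, 6 of the 10 fitted log2 fold changes were above 0 and 4 below it, from -0.12 for Pnpla2 to 0.52 for Pparg, with a median of 0.11 against -0.02 over all 17858 genes tested. None of the 10 passed an unadjusted P of 0.05 in edgeR's quasi-likelihood F-test, where 3.95% of all tested genes did, and for none did the sEV HYP glands lie apart from the sEV NORM glands, as they did for 22.8% of all genes. Pparg came closest: it averaged 299 ± 78.5 CPM (SD, n = 2) in sEV HYP and 208 ± 54.3 CPM (n = 3) in sEV NORM, and its log2 fold change was 0.52 (SE 0.29, 95% interval -0.13 to 1.16, unadjusted P = 0.101). Cfd followed at 0.39 (SE 0.27, 95% interval -0.23 to 1.00, unadjusted P = 0.188). The hormones leptin and adiponectin had fitted values near 0 with wide intervals: Lep had -0.01 with an interval of -0.97 to 0.95, and Adipoq -0.10 with an interval of -0.85 to 0.65. Over the 10 genes the 95% intervals reached from 0.498-fold to 2.24-fold. Adjusted over all genes (Benjamini-Hochberg), the smallest P of the 10 was 1.00 in edgeR, where 0% of all genes came under 0.05. DESeq2 on only the groups compared, the nearest to the study's own test, also called 0 of the 10 at an unadjusted P of 0.05 (smallest 0.0757), beside 6.56% of all genes, of which 82 also passed an adjusted P of 0.05. Without sEV NORM replicate 3 2 genes were called in edgeR, Pparg (log2 fold change 0.74, unadjusted P = 0.0353) and Cfd (0.63, unadjusted P = 0.0497), beside 3.5% of all genes. The median of the 10 was -0.35 without sEV HYP replicate 2, -0.06 without sEV NORM replicate 2 and 0.35 without sEV HYP replicate 1.

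Between sEV HYP and sEV CTRL, 3 of the 10 fitted log2 fold changes were above 0 (Pparg, Cfd and Plin1) and 7 below it, with a median of -0.10 against -0.02 over all genes. None passed an unadjusted P of 0.05, beside 2.45% of all genes, and none had groups that did not overlap, beside 12.8% of all genes. Lep averaged 41.1 ± 13.0 CPM (SD, n = 2) in sEV HYP and 55.8 ± 17.3 CPM (n = 3) in sEV CTRL, a log2 fold change of -0.44 (SE 0.43, 95% interval -1.40 to 0.52, unadjusted P = 0.331). For Adipoq it was -0.41 (SE 0.33, 95% interval -1.16 to 0.34, unadjusted P = 0.255), and for Pparg, in the other direction, 0.38 (SE 0.29, 95% interval -0.27 to 1.03, unadjusted P = 0.215). The smallest adjusted P among the 10 was 1.00, and 0% of all genes in edgeR reached an adjusted P of 0.05. With DESeq2 on only these groups 0 of the 10 were called at an unadjusted P of 0.05, beside 2.06% of all genes, and 14 of all genes reached an adjusted P of 0.05. With sEV HYP replicate 2 left out the median of the 10 was -0.54. Leaving out replicate 1 or 2 of sEV CTRL gave -0.23 or -0.17, while it turned to 0.18 without sEV HYP replicate 1 and to 0.12 once sEV CTRL replicate 3 was left out. Skeletal muscle markers, given with the other cell types at the end, differed widely between glands, and with their level as a covariate Lep alone passed (log2 fold change -0.76, unadjusted P = 0.0327).

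Between sEV NORM and sEV CTRL all 10 fitted values were below 0, from -0.43 for Lep to -0.10 for Fabp4, with a median of -0.20 against -0.00 over all genes. The genes move together, so their common sign is not 10 separate observations, and the pooled SD of their mean log2 CPM within groups, 0.39, was larger than the median difference. This comparison uses the glands that also serve as references for sEV HYP. None passed an unadjusted P of 0.05 (smallest 0.284, for Lep), beside 1.62% of all genes, and all 10 had overlapping groups, beside 4.86% of all genes that did not overlap. In edgeR 0% of all genes reached an adjusted P of 0.05, and DESeq2 on only these groups called 0 of the 10 at an unadjusted P of 0.05, beside 1.43% of all genes, and 3 of all genes at an adjusted P of 0.05. The median was -0.04 without sEV NORM replicate 2, the gland with the lowest mean of these genes, and 0.02 without sEV CTRL replicate 3, the gland with the highest. It was -0.35 without sEV NORM replicate 3 and -0.35 without sEV CTRL replicate 1.

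**Figure D3:**
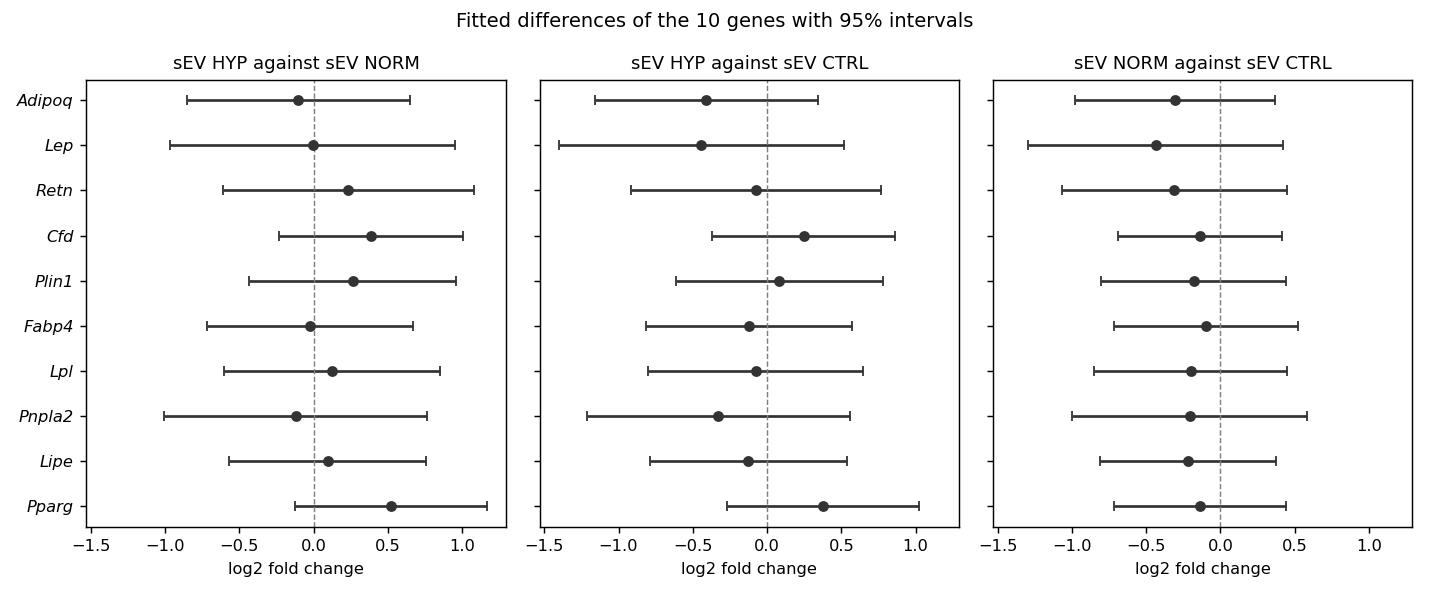
Fitted log2 fold change (horizontal axis) of each of the 10 genes in the 3 comparisons, with bars giving the 95% interval of edgeR's fit. All 30 intervals include 0, and the fitted values of Pparg and Cfd are the highest in both comparisons of sEV HYP.

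Around these genes, 71 others of the adipocyte were listed by role, with results of these data known, and 69 of them were tested. Serpina12 and Fgf21 had too few counts. Between sEV HYP and sEV NORM, 5 of the 69 were higher at an unadjusted P of 0.05 (all genes 2.25%) and 1 was lower (all genes 1.7%), 6 in all, or 8.70% of the list. The median of the 69 was 0.06. In fatty acid uptake and triglyceride synthesis 2 of 15 genes were higher. Agpat2, the acyltransferase that makes phosphatidic acid and is mutated in congenital generalized lipodystrophy, was at 201, 102 and 321 CPM in the sEV CTRL glands, 143, 142 and 141 CPM in the sEV NORM glands and 370.4 and 218 CPM in the sEV HYP glands. Both sEV HYP glands lay above the sEV NORM glands, which were nearly identical, while sEV CTRL spanned a wider range. Against sEV NORM Agpat2 had a log2 fold change of 1.05 (SE 0.41, 95% interval 0.14 to 1.97, unadjusted P = 0.0269). Dgat2, which adds the last fatty acid to triglyceride, was at 265, 183 and 427 CPM in the sEV CTRL glands, 271, 146 and 206 CPM in the sEV NORM glands and 474 and 319 CPM in the sEV HYP glands. It again had both sEV HYP glands above all sEV NORM glands, with a log2 fold change of 0.93 (SE 0.37, 95% interval 0.09 to 1.78, unadjusted P = 0.0323). Of the 11 genes of lipolysis and its control 1 was higher, G0s2, the inhibitor of the lipase that Pnpla2 encodes. It was at 24.8, 34.3 and 56.1 CPM in the sEV CTRL glands, 32.4, 22.2 and 33.0 CPM in the sEV NORM glands and 56.3 and 50.5 CPM in the sEV HYP glands. Against sEV NORM G0s2 had a log2 fold change of 0.87 (SE 0.32, 95% interval 0.15 to 1.59, unadjusted P = 0.0220). Agpat2, Dgat2 and G0s2 were each highest in sEV HYP replicate 1, the gland in which Fabp4, Lpl and Pnpla2 were lowest. Each was second highest in sEV CTRL replicate 3, the gland in which Fabp4 and Pnpla2 were highest, and for G0s2 these 2 glands were nearly level.

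Outside the naming rule for this comparison, and named after their values were seen, 2 further genes were higher in sEV HYP than in sEV NORM. Srebf1, whose SREBP-1c product turns on fatty acid synthesis genes, was at 38.5, 32.6 and 53.7 CPM in the sEV CTRL glands, 38.1, 36.6 and 45.4 CPM in the sEV NORM glands and 71.6 and 63.9 CPM in the sEV HYP glands. Both sEV HYP glands were above all 6 other glands, and the log2 fold change was 0.76 (SE 0.22, 95% interval 0.26 to 1.26, unadjusted P = 0.00670) against sEV NORM. Nrg4, a neuregulin made in brown and beige fat, was at 60.6, 60.7 and 83.7 CPM in the sEV CTRL glands, 39.4, 61.9 and 65.6 CPM in the sEV NORM glands and 67.5 and 108 CPM in the sEV HYP glands. Only sEV HYP replicate 2 was above all other glands, and the log2 fold change was 0.66 (SE 0.28, 95% interval 0.02 to 1.29, unadjusted P = 0.0417). The 1 gene of the list that was lower was Lepr, the leptin receptor, at 53.4, 45.1 and 47.6 CPM in the sEV CTRL glands, 50.2, 67.2 and 51.7 CPM in the sEV NORM glands and 46.5 and 30.6 CPM in the sEV HYP glands, with a log2 fold change of -0.55 (SE 0.22, 95% interval -1.04 to -0.06, unadjusted P = 0.0340). None of the 9 lipid droplet genes and none of the 5 progenitor genes passed. Fitm1, a lipid droplet gene also active in muscle, had the highest fitted value of the list, 1.68 (SE 1.40, 95% interval -1.49 to 4.85, unadjusted P = 0.254), and did not pass. Of the 69 genes, 17 had sEV HYP glands apart from the sEV NORM glands, beside 22.8% of all genes.

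Most calls in this list were lost when single glands were left out. In edgeR none of the 69 passed an adjusted P of 0.05, whereas DESeq2 on only the groups compared called 9 (all genes 6.56%) at an unadjusted P of 0.05 and 2, out of 82 genes in all, at an adjusted P of 0.05, Agpat2 (adjusted P = 0.0106) and Srebf1 (adjusted P = 0.0172). For both, the adjusted P over the 17 alternatives reached up to 1.00 and was under 0.05 in that 1 alternative. In edgeR the unadjusted P of Agpat2 rose to 0.222 without sEV HYP replicate 1 and to 0.0579, 0.0535 and 0.0580 without sEV NORM replicates 1, 2 and 3. Its log2 fold change was 0.62 without sEV HYP replicate 1, and with an sEV NORM gland left out it was 1.06, 1.05 and 1.05, the size found with all glands. In the same edgeR fits Dgat2 lost its call without sEV HYP replicate 1 (unadjusted P = 0.207), sEV NORM replicate 2 (unadjusted P = 0.0921) or sEV NORM replicate 3 (unadjusted P = 0.0679). G0s2 lost it without sEV HYP replicate 1 (unadjusted P = 0.0859), sEV HYP replicate 2 (unadjusted P = 0.0516) or sEV NORM replicate 2 (unadjusted P = 0.0667). Lepr lost it without sEV HYP replicate 2 (unadjusted P = 0.273) or sEV NORM replicate 2 (unadjusted P = 0.112), and Nrg4 without sEV HYP replicate 2 (unadjusted P = 0.424) or sEV NORM replicate 1 (unadjusted P = 0.124). The log2 fold change of Dgat2 was 0.62 to 1.18 over all left-out glands, that of G0s2 0.71 to 0.97, that of Lepr -0.88 to -0.28 and that of Nrg4 0.27 to 0.96. Muscle markers summed to 4377 and 11914 CPM in the sEV HYP glands and to at most 2906 CPM in the sEV NORM glands. Myh1 and Myh2 overlapped between these groups. Muscle level and group therefore cannot be told apart in this comparison. With the muscle markers as a covariate Dgat2 (0.79, unadjusted P = 0.0867), G0s2 (0.63, unadjusted P = 0.0929) and Lepr (-0.32, unadjusted P = 0.167) were no longer called. With luminal markers as the covariate G0s2 (0.79, unadjusted P = 0.0511), Lepr (-0.45, unadjusted P = 0.0622) and Nrg4 (0.52, unadjusted P = 0.109) were not, and Nrg4 was not in edgeR on only the groups compared (unadjusted P = 0.0588). Agpat2 and Srebf1 kept their calls in these settings. The call of Srebf1 held without each gland in turn, with log2 fold changes of 0.68 to 0.86.

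**Figure D4:**
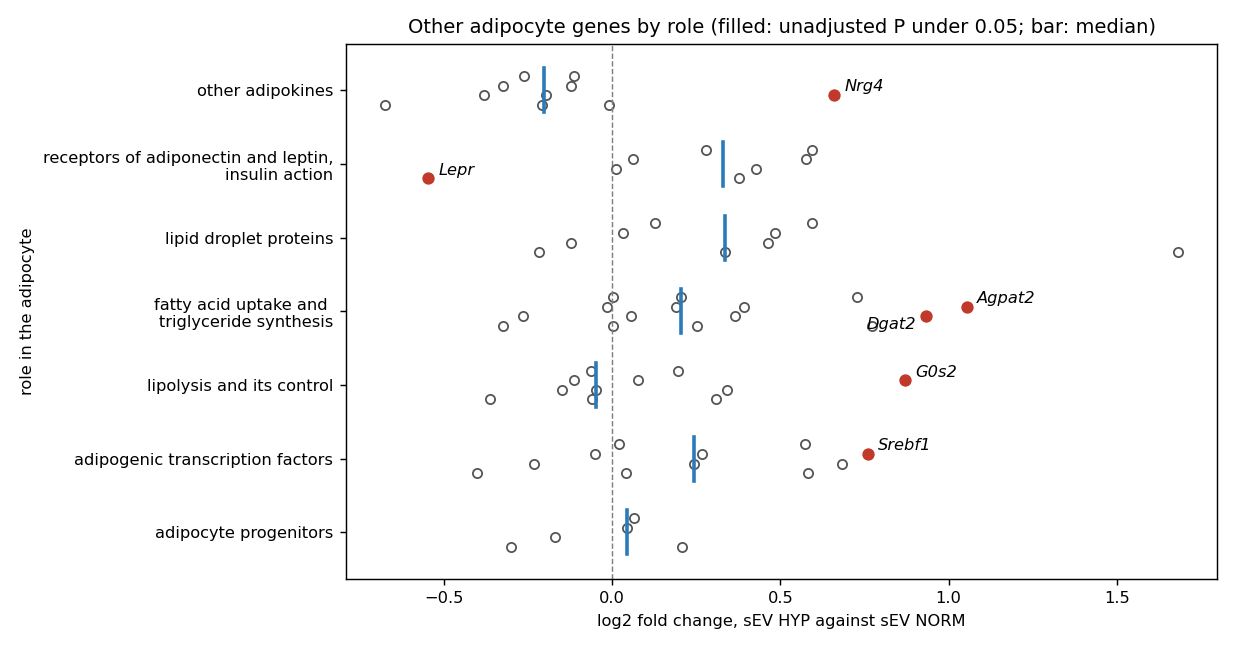
Fitted log2 fold change between sEV HYP and sEV NORM (horizontal axis) of the 69 tested adipocyte genes outside the 10, grouped by role (vertical axis). Each point is 1 gene, filled points passed an unadjusted P of 0.05 and are named, and blue bars are the median of each role. Of the 6 filled points 5 lie to the right of 0 and Lepr lies to the left.

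Against sEV CTRL, 2 of the 69 genes were higher in sEV HYP (all genes 1.39%) and 0 lower (all genes 1.06%), and the median of the 69 was 0.00. Gpat3, which adds the first fatty acid to glycerol 3-phosphate, was at 64.2, 67.9 and 71.5 CPM in the sEV CTRL glands, 75.6, 80.4 and 110.2 CPM in the sEV NORM glands and 96.6 and 132 CPM in the sEV HYP glands. Both sEV HYP glands were above the 3 sEV CTRL glands, with a log2 fold change of 0.75 (SE 0.21, 95% interval 0.28 to 1.22, unadjusted P = 0.00506). Srebf1 was the other, at 0.70 (SE 0.22, unadjusted P = 0.0101). Its P was 0.0604 without sEV HYP replicate 1, and that of Gpat3 was 0.0828 without sEV HYP replicate 2. In edgeR Agpat2 had 0.50 (unadjusted P = 0.242), Dgat2 0.44 (unadjusted P = 0.263) and G0s2 0.47 (unadjusted P = 0.169) in this comparison. Without sEV CTRL replicate 3 all 3 passed in edgeR, at unadjusted P = 0.0274, 0.0441 and 0.0103, and the count of the list went from 2 to 12, beside 2.76% of all genes. It was 4 without sEV CTRL replicate 2 (all genes 8.32%) or sEV HYP replicate 1 (all genes 2.43%), 8 without sEV HYP replicate 2 (all genes 2.17%), and 3 without any other gland. DESeq2 on only these groups called 4 (all genes 2.06%), and 0 at an adjusted P of 0.05.

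Between sEV NORM and sEV CTRL, 0 of the 69 passed an unadjusted P of 0.05 in edgeR in either direction, beside 0.89% of all genes higher and 0.734% lower, and DESeq2 on only these groups called 2 (all genes 1.43%). The median of the 69 was -0.11. The count was 5 without sEV CTRL replicate 2 (all genes 5.75%), 3 without sEV CTRL replicate 1 (all genes 3.2%), 2 without sEV NORM replicate 2 or 3 (all genes 1.26% and 1.65%), and 1 without sEV CTRL replicate 3 or sEV NORM replicate 1 (all genes 1.34% and 1.91%).

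Of the 11738 other tested genes with a mean of at least 5 CPM, those whose log2 CPM over the 8 glands was most like the mean of the 10 were Eci3 (Pearson r = 0.984), Sort1 (0.979), Clpb (0.978), Eci2 (0.975) and Cd99l2 (0.974). Eci2 and Eci3 encode isomerases of fatty acid oxidation, and Sort1 encodes sortilin, a sorting receptor of the vesicles that carry the insulin-responsive glucose transporter. Eci3 ranged from 16.8 to 39.3 CPM and Sort1 from 116 to 211 CPM. At the other end were Stk17b (-0.997), Gpr174 (-0.983), Klhl14 (-0.979), Baz1a (-0.977) and Uhmk1 (-0.976). Stk17b encodes a kinase and Gpr174 a receptor that are both abundant in lymphocytes. Stk17b ran from 241 CPM in sEV CTRL replicate 3 to 596 CPM in sEV NORM replicate 2, the mirror of the adipocyte genes. Member by member, the gene most like Fabp4 was Cd36 (r = 0.989), the fatty acid translocase, the one most like Plin1 was Ivd (0.993), of leucine breakdown, and the one most like Lipe was Aldh2 (0.988), a mitochondrial aldehyde dehydrogenase. The nearest genes were Rusc2 for Adipoq (0.992), Evi5l for Lep (0.988), BC029722 for Retn (0.986), Slc25a44 for Cfd (0.975), Ywhab for Lpl (0.988), Rad51d for Pnpla2 (0.980) and Loxl1 for Pparg (0.973). These genes were picked as the extremes of the list, over 8 libraries, so no p is given.

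The label of the genes was checked against 7 other markers of white adipocytes (Cidec, Aqp7, Adrb3, Slc2a4, Pck1, Gpd1 and Plin4), all of which are also among the 71 genes above. Their summed level was 932 to 2002 CPM over the 8 glands, none was at 0 throughout, and in edgeR 0 passed an unadjusted P of 0.05 in any comparison. It followed the mean of the 10 genes across glands (Pearson r = 0.91, exact permutation P = 0.00198, adjusted P = 0.0179, Spearman rho = 0.95, exact permutation P = 0.00114, adjusted P = 0.0103), and r was 0.95 without the 2 glands farthest from the median of the markers, sEV NORM replicate 2 and sEV HYP replicate 1. Cidec and Pck1 weigh most in this sum, with medians of 433 and 548 CPM beside at most 168 CPM for each other marker of the 7. Pck1, the enzyme of glycerol supply in fat, was at 139.8 CPM in sEV HYP replicate 1 and 787 CPM in sEV HYP replicate 2, lower in the first than in any other gland. Cidec, Aqp7, Adrb3 and Plin4 were also lower in sEV HYP replicate 1 than in replicate 2. Gpd1 went the other way, at 229 CPM in sEV HYP replicate 1, its highest gland, and 146 CPM in sEV HYP replicate 2. Slc2a4 was at 53.4 and 53.3 CPM in sEV HYP replicates 1 and 2. Relations to 9 marker lists are given, with adjustment over the 9 (Benjamini-Hochberg) and two-sided tests.

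Markers of the other cells of the gland varied as well. The 4 endothelial markers summed to 459 to 629.8 CPM and ran with the adipocyte genes, a relation that did not pass the adjustment (Pearson r = 0.77, exact permutation P = 0.0260, adjusted P = 0.117, Spearman rho = 0.81, exact permutation P = 0.0218, adjusted P = 0.0980, and r = 0.58 without sEV CTRL replicate 3 and sEV NORM replicate 3). The 11 skeletal muscle markers spanned 10.4 CPM in sEV NORM replicate 2 to 11914 CPM in sEV HYP replicate 2, with 638 to 8144 CPM in sEV CTRL, at most 2906 CPM in sEV NORM and 4377 CPM in sEV HYP replicate 1. Their relation to the adipocyte genes (Pearson r = 0.66, exact permutation P = 0.0671, adjusted P = 0.201, Spearman rho = 0.38, exact permutation P = 0.360, adjusted P = 0.810) rested on sEV NORM replicate 2 and sEV HYP replicate 2, since r was -0.05 without them. For the other 6 lists r was -0.50 (T cell) to 0.37 (brown adipocyte), and the smallest P of their Pearson and Spearman values was 0.197. Without the 2 glands farthest from each list's median r went from 0.18 to 0.77 for fibroblast markers (sEV CTRL replicates 1 and 3 left out), from 0.24 to -0.21 for luminal markers and from 0.11 to -0.43 for macrophage markers, and it was 0.14, -0.28 and -0.54 for the brown adipocyte, basal and T cell lists. Of the 7 brown adipocyte markers Ucp1, the uncoupling protein, was at 6.16 CPM in sEV HYP replicate 2, 2.04 CPM in sEV NORM replicate 2 and at most 0.331 CPM in the other glands, far under Adipoq. The brown markers summed to 28.8 to 85.1 CPM. By edgeR Cox7a1 was higher in sEV HYP than in sEV NORM (unadjusted P = 0.0376, all genes 2.25%). Dio2 (unadjusted P = 0.00631) and Ucp1 (unadjusted P = 0.0121) were higher in sEV HYP than in sEV CTRL (all genes 1.39%). Cox7a1 was highest where muscle markers were highest, at 15.1, 9.62 and 9.53 CPM in sEV HYP replicate 2, sEV CTRL replicate 2 and sEV HYP replicate 1. Whether muscle accounts for this call was not tested. Dio2 was at 3.89 and 16.0 CPM in sEV HYP replicates 1 and 2, beside 6.47 CPM in sEV NORM replicate 2. By edgeR Oxtr of the basal epithelial markers (unadjusted P = 0.0247) and Col3a1 of the fibroblast markers (unadjusted P = 0.0283) were also higher in sEV HYP than in sEV CTRL, and no other gene of the 9 lists was called. The part of these cells in the gland-to-gland variation of the white adipocyte genes was not tested.

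**Figure D5:**
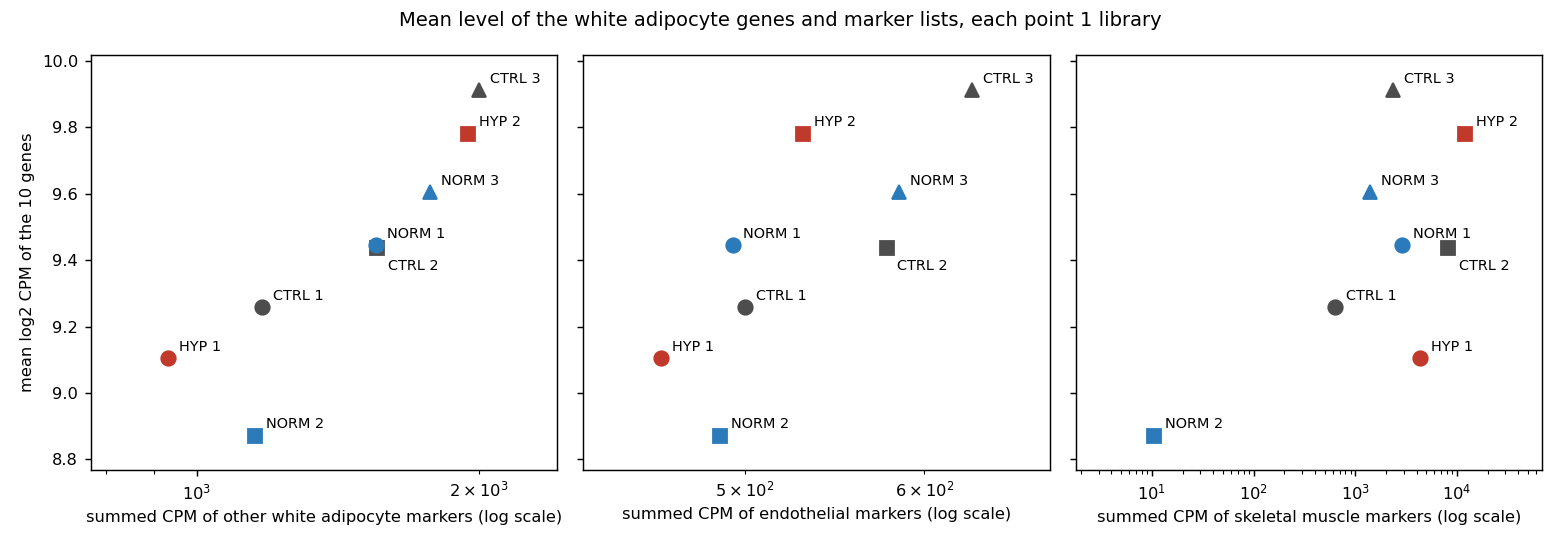
Mean log2 CPM of the 10 white adipocyte genes (vertical axis) against the summed CPM of 7 other white adipocyte markers, 4 endothelial markers and 11 skeletal muscle markers (horizontal axes, log scale), with 1 point per gland, colored by sEV group and named by group and replicate. The genes rise with the other white adipocyte markers (r = 0.91) and with the endothelial markers (r = 0.77, not past the adjustment), and sEV NORM 2 lies alone at the low end of the muscle markers.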

How the data were processed

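The deposited counts cover whole mammary glands, with 3 sEV CTRL, 3 sEV NORM and 2 sEV HYP libraries, grouped by the sample labels. The authors aligned reads with STAR to GRCm38 and estimated counts per gene (Ensembl release 89) with RSEM 1.2.12. As deposited they are whole-number counts per gene, not normalized, and how the estimates were rounded is not given in the sources used here. Differences were tested with edgeR 4.0.16 under R 4.3.3 (filterByExpr, minimum count 10, TMM factors of 0.975 to 1.02, two-sided quasi-likelihood F-test) in 1 model of the 3 groups with 5 residual degrees of freedom. Intervals used the fit's SE. Log2 CPM used a prior count of 2. DESeq2 1.42.0 was an alternative, and the fit was tested on simulated data. Positions came from GENCODE M21 and promoters from RefSeq.

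The 10 genes, the lists and the tests were chosen with earlier results of these data known. Named genes are the 10, for each comparison among listed genes called at an unadjusted P under 0.05 up to 3 of the highest and 3 of the lowest fold changes, and the 5 genes most and least like the mean of the 10. Alternatives were other size factors, other filters, DESeq2, edgeR on only the groups compared, the replicate number as a block, muscle or luminal marker levels as covariates, and each library left out. The common biological coefficient of variation was 0.297. Total counts were 18194996 to 24622569 per library, and counting error of the 10 genes was small beside it. 1 further marker list is not reported here.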

Additional observations from a re-analysis of the deposited data

How the results depend on the processing

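With the deposited counts, 0 of the 10 genes were called in any comparison with DESeq2 size factors, without the filter, with at least 10 counts in every library, with DESeq2 on all 8 libraries, with DESeq2 or edgeR on only the groups compared, or with luminal markers as a covariate. In these fits 1.26% to 6.56% of all genes were called. With skeletal muscle markers as a covariate 1 of the 10 was called between sEV HYP and sEV CTRL (all genes 3.19%). Leaving out each library in turn gave 0 to 2 called genes between sEV HYP and sEV NORM and 0 in both other comparisons. Where this leaves 1 sEV HYP library, that library is assumed to vary like the others. Same-numbered libraries had correlations of -0.42 to 0.37 in their deviations from the group means, and differently numbered ones -0.37 to 0.47. Taking out the group mean makes the 2 sEV HYP libraries mirror images, which fixes part of the signs. These values therefore do not decide whether the labels' numbers pair the glands, and no pairing is shown. In edgeR with the replicate block 2 genes were called between sEV HYP and sEV NORM (Pparg, unadjusted P = 0.0110, and Cfd, unadjusted P = 0.0432), beside 4.31% of all genes. With the block 1 was called between sEV HYP and sEV CTRL (Pparg, unadjusted P = 0.0302, all genes 2.25%) and 0 between sEV NORM and sEV CTRL (all genes 1.41%). The median log2 fold change of the 10 over left-out libraries was -0.35 to 0.35 between sEV HYP and sEV NORM, -0.54 to 0.18 between sEV HYP and sEV CTRL and -0.35 to 0.02 between sEV NORM and sEV CTRL.

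Of the 69 tested adipocyte genes, 10 were called between sEV HYP and sEV NORM without the filter (all genes 4.04%) and 14 with the replicate block (4.31%), and 4 to 7 with 1 library left out (2.21% to 5.57%). Between sEV HYP and sEV CTRL 4 were called without the filter (all genes 2.47%), with DESeq2 on all libraries (2.72%) and on only these groups (2.06%), 11 with the replicate block (2.25%), 6 with muscle (3.19%) or with luminal markers (4.34%) as a covariate, and 3 to 12 with 1 library left out (1.92% to 8.32%). Between sEV NORM and sEV CTRL 4 were called without the filter (all genes 1.96%), 2 with DESeq2 on all libraries (1.72%) and on only these groups (1.43%), 1 with the replicate block (1.41%), 3 with muscle (2.39%) or with luminal markers (3.45%), and 0 to 5 with 1 library left out (1.26% to 5.75%).

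Directions of the 10 genes were not stable, since 21 of their 30 fitted values changed sign at least once, and the cause was not tested. Between sEV HYP and sEV NORM the replicate block gave 0.050 for Adipoq, 0.23 for Lep, 0.049 for Fabp4 and 0.079 for Pnpla2, and muscle markers as a covariate gave -0.029 for Retn, -0.0012 for Plin1, -0.20 for Lpl and -0.094 for Lipe. Luminal markers gave -0.12 for Lpl there and -0.28 for Plin1 between sEV HYP and sEV CTRL. In that comparison the block gave 0.24 for Retn and 0.087 for Lipe, and muscle markers -0.049 for Plin1. Between sEV NORM and sEV CTRL muscle markers gave 0.051 for Fabp4. With 1 library left out, signs changed between sEV HYP and sEV NORM for Adipoq (-0.50 to 0.20), Lep (-0.38 to 0.29), Retn (-0.0018 to 0.42), Plin1 (-0.32 to 0.67), Fabp4 (-0.47 to 0.31), Lpl (-0.43 to 0.52), Pnpla2 (-0.67 to 0.27) and Lipe (-0.23 to 0.35). Between sEV HYP and sEV CTRL they changed for Retn (-0.28 to 0.34), Cfd (-0.00089 to 0.45), Plin1 (-0.51 to 0.50), Fabp4 (-0.58 to 0.22), Lpl (-0.63 to 0.32), Pnpla2 (-0.88 to 0.078) and Lipe (-0.46 to 0.16), and between sEV NORM and sEV CTRL for Retn (-0.51 to 0.11), Cfd (-0.38 to 0.025), Fabp4 (-0.29 to 0.057), Pnpla2 (-0.43 to 0.20), Lipe (-0.36 to 0.067) and Pparg (-0.36 to 0.082). Cfd and Pparg were above 0 between sEV HYP and sEV NORM in all 17 alternatives. Counting error was small beside the spread between glands, which set the width of the printed intervals.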

Other observations

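Ratios of members within a gland were looked at after the values were seen. They set aside the gland's share of fat only as far as both genes come from adipocytes alone, which was not tested. Cfd stood at 2.70 and 2.27 times Adipoq in CPM in the sEV HYP glands, against 1.85, 1.45 and 1.44 in sEV CTRL and 1.45, 1.97 and 1.87 in sEV NORM. Both sEV HYP glands were above all 6 others. Pparg stood at 100.4 and 85.5 per 1000 of Fabp4 in sEV HYP, against 79.0, 48.0 and 69.6 in sEV CTRL and 44.8, 75.9 and 69.8 in sEV NORM. Of the 45 ratios among the 10 genes, 9 (20%) set both sEV HYP glands apart from all other glands, where 6.49% of the ratios among the 11735 tested genes with a mean of at least 5 CPM and no library at 0 did. Cfd and Pparg were each part of 4 of the 9. The ratios share genes and glands. The 10 genes vary together from gland to gland, and the 6.49% is over genes not matched for that, so these shares are not directly comparable. No test was made.

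Some ratios to Adipoq had 1 gland apart from the rest, also seen only after the values were known. Lep was at 28.9 per 1000 of Adipoq in sEV NORM replicate 2 and at 39.3 to 49.6 in the other 7 glands. Retn was at 0.635 times Adipoq in sEV CTRL replicate 2 and at 0.834 to 1.37 elsewhere. Lpl was at 3.05 times Adipoq in sEV CTRL replicate 3 and at 3.91 to 5.07 elsewhere.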
